A study of Oryza sativa with 12 samples.

Results

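Described here are 3 rice genes of the crown whose transcripts rose steeply when zinc was withheld: OS04G0561500, annotated as similar to a prolyl endopeptidase, OS01G0740500, similar to glutamate carboxypeptidase 2, and OS04G0280500, similar to a non-S-locus F-box-like protein. They are 3 of the 33277 genes in each deposited table. They were chosen by their measured log2 fold changes, for large rises without Zn in both genotype classes, so every value of the Zn comparisons below is a description of that choice and not a test of it. The locus identifiers place the first and the last on chromosome 4 and the carboxypeptidase on chromosome 1; positions within the chromosome are not given here.

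The crown is the stem base of the rice plant, which bears the leaves and the crown roots. RNA sequencing of crowns gave 12 libraries in 4 groups of 3: Zn-inefficient genotypes without Zn, Zn-efficient genotypes without Zn, Zn-inefficient genotypes with Zn and Zn-efficient genotypes with Zn. The inefficient genotypes were IR64, IR74 and Kinandang Patong, and the efficient ones were IR55179-3B-11-3, Nipponbare and RIL46. Plants stood for 8 days in Yoshida solution with either 0 or 1.5 µM ZnSO4, and all groups also had 0.1% agar and 1 mM KHCO3. Each genotype has 1 library per Zn supply, so the replicates of a group are different genotypes, and a class difference is one between these 3 and the other 3 genotypes. The deposited tables hold 1 value per gene and comparison, so no value of a single library is given for any gene, and the library depth is unknown. Nipponbare is also the reference genome, and whether reads of the other genotypes aligned less well at these loci was not tested.

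Zinc is a cofactor of many plant enzymes and transcription factors, and plants short of it raise the expression of zinc uptake and transport genes. Prolyl oligopeptidases are serine peptidases that cut short peptides after proline and need no metal. Glutamate carboxypeptidases of the type named here are membrane-anchored metallopeptidases with zinc in the active site; their relative AMP1 in Arabidopsis and PLASTOCHRON3 in rice set the pace of leaf initiation. F-box proteins choose the substrates of SCF ubiquitin ligases, which mark proteins for breakdown, and the name of OS04G0280500 refers to relatives of the F-box genes of the self-incompatibility locus.

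The prolyl endopeptidase-like gene OS04G0561500 drew the most reads of the 3, by count and not per length. Over all libraries it averaged 20139 normalized counts per the authors' deposited table, which is 0.247% of the summed means of all genes and rank 12 among them. The group means derived from the authors' deposited tables were 49578 normalized counts without Zn in inefficient genotypes, against 179 with Zn. In efficient genotypes the derived means were 30534 without Zn, against 263 with Zn. Read as shares, the gene held 0.589% of all derived counts in inefficient crowns without Zn, against 0.00226% in inefficient crowns with Zn, and 0.368% in efficient crowns without Zn, against 0.00330% in efficient crowns with Zn. Both groups without Zn stood above both groups with Zn. The log2 fold change for the absence of Zn was 8.11 (SE 0.49) in inefficient and 6.86 (SE 0.49) in efficient genotypes per the authors' deposited tables, which is a fold of 277 (197 to 389 at 1 SE either way) and of 116 (82.7 to 163). Over all genotypes it was 7.49 (SE 0.38). Among the genes called as rises it had the highest overall mean per the authors' deposited table of either class.

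The glutamate carboxypeptidase-like gene OS01G0740500 had the smallest fold change of the 3. Its overall mean was 1374 normalized counts per the authors' deposited table. The means derived from the authors' deposited tables were 2645 normalized counts without Zn in inefficient genotypes, against 344 with Zn, and 2083 without Zn in efficient genotypes, against 422 with Zn. Here too both groups without Zn stood above both groups with Zn, by a narrower margin. The log2 fold change was 2.94 (SE 0.27) in inefficient, 2.30 (SE 0.27) in efficient and 2.62 (SE 0.21) over all genotypes per the authors' deposited tables. In linear terms this is a fold of 7.68 (6.37 to 9.27 at 1 SE either way) in inefficient and of 4.94 (4.10 to 5.96) in efficient genotypes.

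The F-box-like gene OS04G0280500 had very few counts with Zn and many without it. Its overall mean was 3255 normalized counts per the authors' deposited table, nearly all of it from the groups without Zn. The means derived from the authors' deposited tables were 8215 normalized counts without Zn in inefficient genotypes, against 11.2 with Zn, and 4789 without Zn in efficient genotypes, against 3.26 with Zn. The log2 fold change was 9.52 (SE 0.62) in inefficient, 10.52 (SE 0.73) in efficient and 9.95 (SE 0.49) over all genotypes per the authors' deposited tables. The linear folds are 735 (479 to 1127 at 1 SE either way) in inefficient and 1467 (888 to 2426) in efficient genotypes. The fold in efficient genotypes rests on very few counts with Zn.

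**Figure D1:**
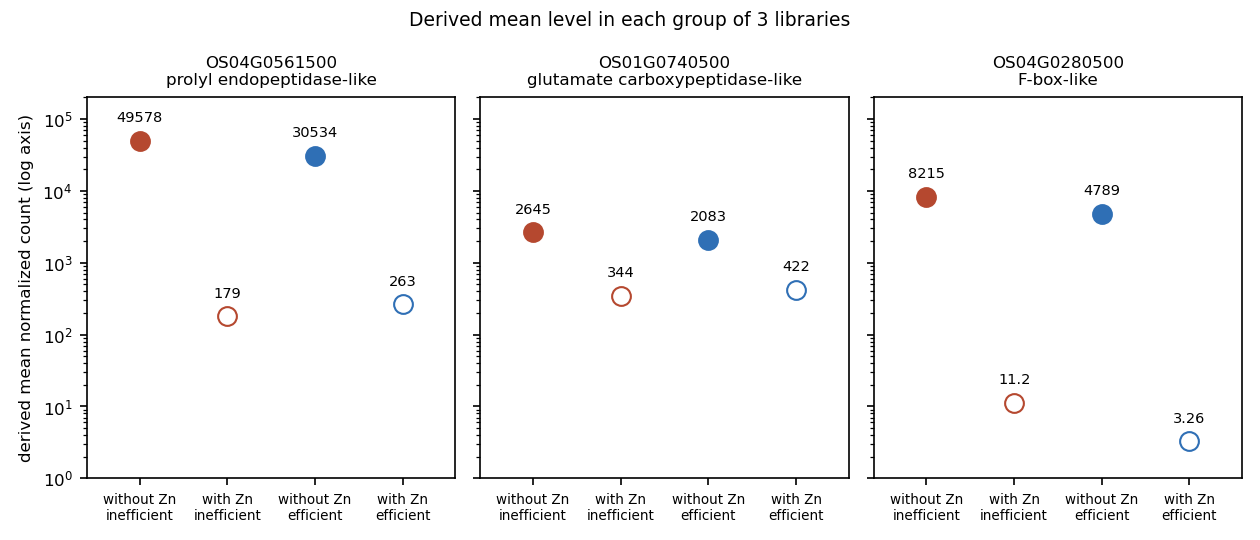
Mean normalized count of each of the 3 genes in the 4 groups, on a log axis, derived from the authors' deposited tables. Each point is a group of 3 libraries without an error, since no values per library are given. The groups without Zn lie above the groups with Zn for every gene. The ratio is smallest at 2083 against 422, for the glutamate carboxypeptidase-like gene in efficient genotypes. It is largest at 4789 against 3.26, for the F-box-like gene in efficient genotypes.

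All 3 genes pass the authors' test for a change beyond 2-fold in each Zn comparison, as the choice of genes required. In the authors' deposited tables that test calls 2.42% of 24127 genes higher without Zn in inefficient genotypes, 0.246% of 26062 in efficient genotypes and 0.922% of 25373 over all genotypes, at an adjusted p under 0.05. It calls 1.08%, 0.0345% and 0.197% lower, in the same order. By size of fold the F-box-like gene ranked 12 of the 584 called rises in inefficient genotypes and 1 of the 64 in efficient genotypes. The prolyl endopeptidase-like gene ranked 26 and 14 in the same lists, and the glutamate carboxypeptidase-like gene 339 and 56. Of the 57 genes called as rises in both classes, the carboxypeptidase-like gene was thus near the lower end, at rank 48 in inefficient and 51 in efficient genotypes. Together the 3 genes made up 0.718% of all derived counts in inefficient crowns without Zn, against 0.00676% with Zn. In efficient crowns they made up 0.451% without Zn, against 0.00863% with Zn.

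The standard errors imply a spread between libraries that is pooled over the groups. They do not show the scatter within any single group. For 99.9% of 20281 genes, the squared spreads implied by the Zn comparisons of the 2 classes lay within 10% of each other. The spread between libraries implied by the authors' deposited standard errors and the derived means was a coefficient of variation of 41.3% for the prolyl endopeptidase-like gene, 22.6% for the glutamate carboxypeptidase-like gene and 47.5% to 48.0% for the F-box-like gene. The median over 20281 genes was 22.3%, and 79.6%, 50.8% and 84.0% of them had a lower value than these 3 genes in that order. The implied spread of the prolyl endopeptidase-like and F-box-like genes was thus above that of most genes, and that of the carboxypeptidase-like gene was near the median. Whether the authors' fit had a genotype term is not stated, so this spread may or may not include differences between the genotypes of a group. Counting error made up 1.62% of the variance of the prolyl endopeptidase-like gene's Zn response in inefficient and 1.11% in efficient genotypes. For the carboxypeptidase-like gene it made up 3.10% in inefficient and 2.71% in efficient genotypes. For the F-box-like gene it made up 16.3% in inefficient and 40.4% in efficient genotypes, where the count with Zn was lowest.

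The classes were also compared at a fixed Zn supply. The choice of genes did not name these comparisons, but they use the same libraries, and a gene high without Zn in a single class would not have been chosen. The lack of a class call is therefore no independent result. None of the 3 genes was called different between inefficient and efficient genotypes per the authors' deposited tables, whether without Zn, with Zn or over both supplies, and the DESeq2 adjusted p was 1 in all of these. In the same comparisons 0.298% of all genes without Zn, 0.00923% with Zn and 0.0524% over both supplies are called in either direction, so a call was rare for any gene. No unadjusted p of the authors' test, which asks for a change beyond 2-fold, was under 0.05 for the 3 genes either. The lowest, per the authors' deposited tables, was 0.311 for the F-box-like gene with Zn. Without adjustment, the 95% interval of the F-box-like gene lay above 0 with Zn (0.27 to 3.28) and over both supplies (0.22 to 2.07). A test of any difference from 0, computed from the same deposited values, called none of them, with adjusted p between 0.356 and 1, where it called 4.04%, 0.0677% and 0.804% of all genes.

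The intervals show what sizes of class difference remain possible. Without Zn, the prolyl endopeptidase-like gene was higher in inefficient genotypes by 0.70 on the log2 scale (SE 0.49, 95% interval -0.25 to 1.65) per the authors' deposited table. The difference without Zn was 0.34 (SE 0.27, -0.18 to 0.87) for the carboxypeptidase-like gene and 0.78 (SE 0.57, -0.33 to 1.89) for the F-box-like gene per the authors' deposited table. All 3 point estimates lay above 0 and all 3 intervals included 0. With Zn, the difference was -0.56 (SE 0.49, -1.52 to 0.41) for the prolyl endopeptidase-like gene and -0.29 (SE 0.27, -0.83 to 0.24) for the carboxypeptidase-like gene per the authors' deposited table. With Zn the F-box-like gene alone had an interval above 0, at 1.78 (SE 0.77, 0.27 to 3.28) per the authors' deposited table, a value that rests on derived means of 11.2 normalized counts in inefficient and 3.26 in efficient genotypes, with counting error at 46.8% of its variance. Over both supplies the F-box-like gene was at 1.15 (SE 0.47, 0.22 to 2.07) per the authors' deposited table, the prolyl endopeptidase-like gene at 0.08 (SE 0.38) and the carboxypeptidase-like gene at 0.03 (SE 0.21). Absent a call, class differences up to the ends of these intervals remain possible, so the classes are not shown to be alike.

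**Figure D2:**
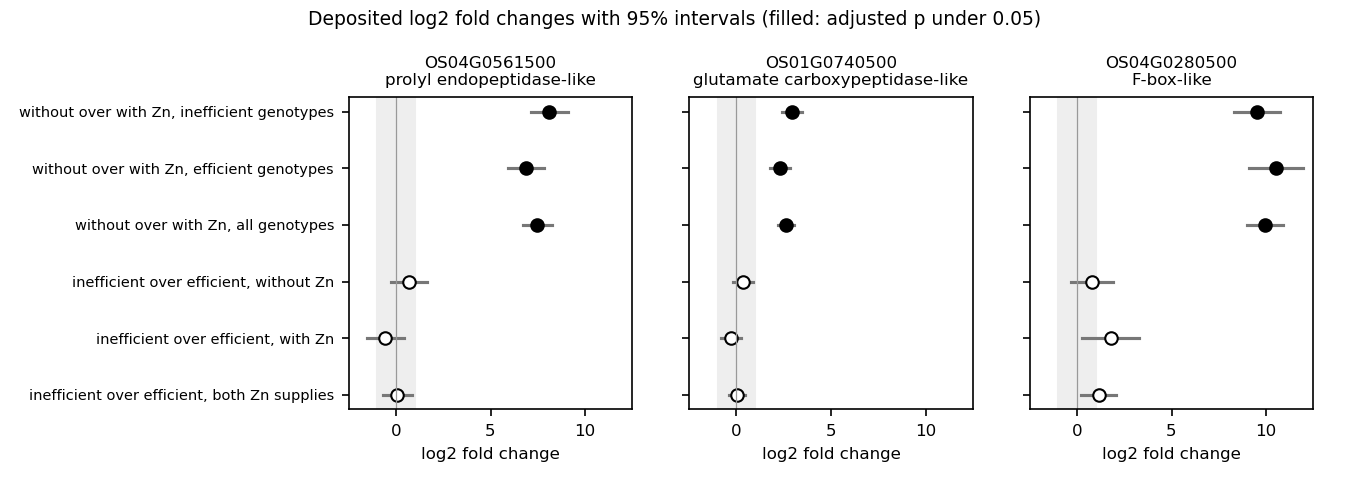
Log2 fold change of each of the 3 genes in the 6 deposited comparisons, without over with Zn and inefficient over efficient, with 95% intervals from the deposited standard errors; filled points are called by the authors' test and the grey band marks changes within 2-fold. The Zn comparisons lie between 2.30 and 10.52, and the class comparisons between -0.56 and 1.78.

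The size of the Zn response in the classes can be set side by side but not tested, because both responses chose the genes. The response of the prolyl endopeptidase-like gene was larger in inefficient than in efficient genotypes by 1.26 on the log2 scale (SE 0.69, 95% interval -0.10 to 2.61), computed from the authors' deposited tables. For the carboxypeptidase-like gene the same difference was 0.64 (SE 0.38, -0.11 to 1.39), and for the F-box-like gene it was -0.998 (SE 0.95, -2.86 to 0.87). The ratio of the folds, inefficient over efficient, was 2.39, 1.56 and 0.501 in that order. All 3 intervals include 0. Over all genes, a test of no difference between the responses, computed from the same deposited values, called 1.58% of 24127 higher in inefficient genotypes and 0.783% lower.

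**Figure D3:**
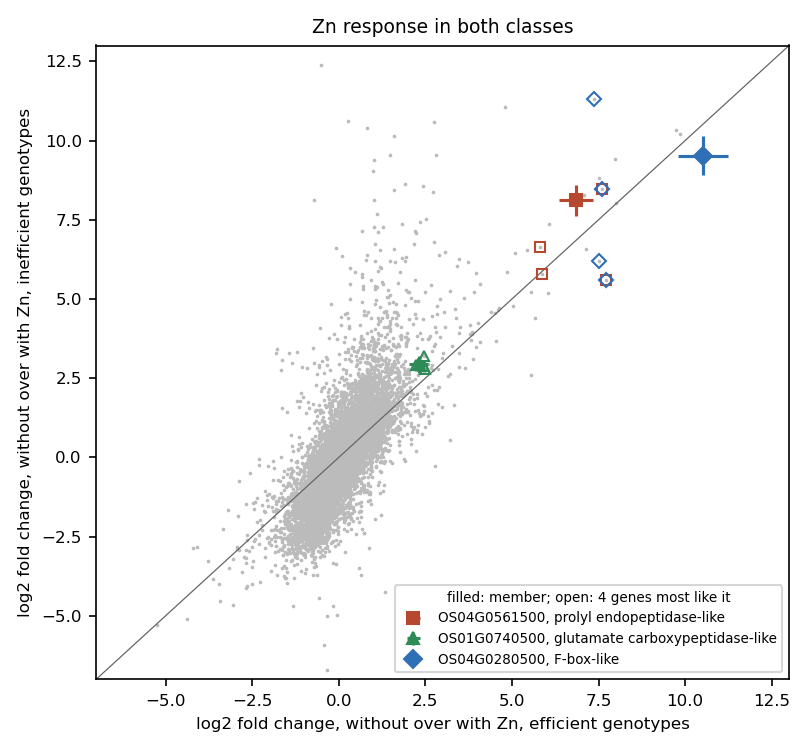
Log2 fold change without over with Zn in inefficient genotypes (vertical) and efficient genotypes (horizontal) for 19882 genes that reached a mean of 20 normalized counts and were tested in both, of which 2 lie outside the axes. The 3 genes, with 1 SE bars, sit to the upper right of 0, at 8.11 and 6.86, 2.94 and 2.30, and 9.52 and 10.52 in that order of classes. Open markers are the genes most like them, in the shape of the gene they resemble.

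Of the rest of the prolyl oligopeptidase family, no gene was called for Zn. The family list held 9 other genes, all tested, with no call in any Zn comparison of the authors' deposited tables, by DESeq2 or at an unadjusted p under 0.05. Their log2 fold changes lay between -1.20 and 0.73 in inefficient genotypes (median 0.02, against 0.0031 for all genes tested) and between -0.53 and 0.29 in efficient genotypes (median 0.07, against -0.0045). A test of any change, computed from the deposited values, called 4 of the 9 higher and 1 lower in inefficient genotypes and none in efficient ones; over all genes it called 32.2% in inefficient and 7.86% in efficient genotypes, in either direction. The closest in name, OS01G0108200, also annotated as similar to prolyl endopeptidase, stood at -0.43 (SE 0.20) in inefficient and -0.29 (SE 0.20) in efficient genotypes per the authors' deposited tables. Its derived means were 479 normalized counts without Zn, against 648 with Zn, in inefficient genotypes, and 456 against 556 in efficient genotypes. The highest value in the family, in OS06G0215400, was 0.73 in inefficient and 0.29 in efficient genotypes per the authors' deposited tables. The lowest, in OS10G0415800, was -1.20 and -0.53.

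Beside OS01G0740500 the tables hold 2 other genes of its family. OS01G0740650, the next locus by identifier, has the same description, similar to glutamate carboxypeptidase 2. Its log2 fold change was 1.51 (SE 0.27, adjusted p 0.75) in inefficient and 0.62 (SE 0.27, adjusted p 1) in efficient genotypes per the authors' deposited DESeq2 tables, so it was not called. The derived means were 215 normalized counts without Zn, against 75.5 with Zn, in inefficient genotypes, and 138 against 89.6 in efficient genotypes. A test of any change called it in inefficient genotypes. Whether reads of these neighbouring genes were shared or split by the counting was not tested, so the separate values are uncertain. The other, OS03G0790600, described as a glutamate carboxypeptidase of hormone homeostasis, was barely present, with an overall mean of 0.824 normalized counts per the authors' deposited table, and was not tested for Zn.

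The F-box list held 367 other genes. In inefficient genotypes 8 of 273 tested were called higher and 2 lower per the authors' deposited table (median 0.03), and in efficient genotypes 1 of 292 was higher and none lower (median -0.04). The shares higher, 2.93% in inefficient and 0.342% in efficient genotypes, are near those of all genes tested, 2.42% and 0.246%. Of all genes tested, 1.08% were called lower in inefficient and 0.0345% in efficient genotypes. The 1 called in both was OS06G0166000, a cyclin-like F-box domain gene, which rose by 4.38 (SE 0.16, DESeq2 adjusted p 2.82e-93) in inefficient and 3.39 (SE 0.16, adjusted p 4.51e-48) in efficient genotypes per the authors' deposited tables. Its derived means were 1143 normalized counts without Zn, against 54.8 with Zn, in inefficient genotypes, and 646 against 61.6 in efficient genotypes. OS10G0520100, OS09G0342000 and OS09G0341500, all F-box domain genes, rose in inefficient genotypes by 4.60 (SE 0.66), 6.18 (SE 1.05) and 9.55 (SE 1.96) and stood in efficient genotypes at 1.65, 1.90 and 1.48 per the authors' deposited tables, with no call there. These folds rest on very few counts. With Zn in inefficient genotypes the derived means were 2.99, 1.32 and 0.182 normalized counts in that order. In efficient genotypes none of the 3 exceeded 11.1 at either supply. OS09G0342000 was also called between classes without Zn, at 4.74 (SE 0.88, DESeq2 adjusted p 0.00938) per the authors' deposited table. The SCF core list, of Skp1, cullin and ring-box genes that hold an F-box protein in the ligase, had 20 genes, 16 of them tested for Zn, and none was called in any Zn comparison of the authors' deposited tables. None had an unadjusted p under 0.05, and a test of any change called 2 of them in inefficient genotypes and 1 in efficient genotypes, all higher; the same test called 32.2% and 7.86% of all genes.

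Over all peptidase lists, the prolyl oligopeptidase and glutamate carboxypeptidase families included, 5 of 216 tested genes were called higher (2.31%) and 2 lower (0.926%) in inefficient genotypes, and none of 235 was called in efficient genotypes, per the authors' deposited DESeq2 tables. At an unadjusted p under 0.05 the counts were 24 and 3, and a test of any change called 91 and 23. By that last test the shares were 42.1% in inefficient and 9.79% in efficient genotypes, against 32.2% and 7.86% of all genes. By the authors' test the shares called in inefficient genotypes lie close to those of all genes tested, 2.42% higher and 1.08% lower. The median log2 fold change in inefficient and efficient genotypes was 0.61 and 0.42 for the serine carboxypeptidases, -0.58 and -0.08 for the subtilisins, 0.24 and 0.21 for the aspartic, 0.51 and 0.31 for the cysteine and 0.17 and 0.10 for the other metallopeptidases. The serine carboxypeptidases OS04G0396800 and OS11G0522900 fell by 3.02 (SE 0.34) and 2.31 (SE 0.39) in inefficient genotypes per the authors' deposited table. The subtilase gene OS12G0427600 rose by 8.10 (SE 1.45), the aspartic protease gene OS11G0183900 (Asp1) by 3.36 (SE 0.40), the gene OS01G0778800, of a zinc metallopeptidase family, by 2.64 (SE 0.20) and the methionine aminopeptidase-like gene OS08G0542000 by 2.93 (SE 0.43) in the same deposited table. The rise of OS12G0427600 rests on a derived mean of 0.182 normalized counts with Zn in inefficient genotypes. The fifth rise, of OS05G0494200 at 3.77 (SE 0.50), belongs to a cystatin, which inhibits cysteine peptidases and entered the list through the words of its description. Of these genes, OS01G0778800 was also called between classes without Zn, at 1.88 (SE 0.19, DESeq2 adjusted p 0.00330) per the authors' deposited table.

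**Figure D4:**
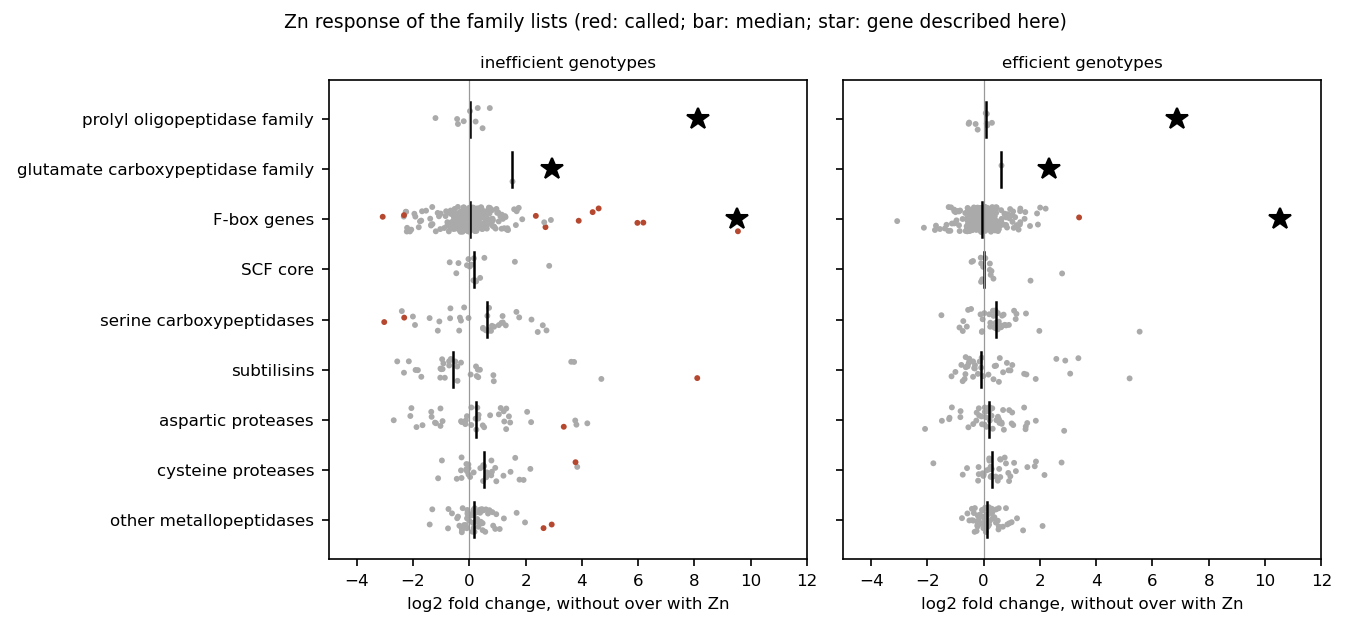
Log2 fold change without over with Zn for the genes of 9 lists, in inefficient and efficient genotypes; red points are called by the authors' test, bars are medians and stars are the 3 genes described here. The prolyl oligopeptidase family lies between -1.20 and 0.73 in inefficient genotypes, where its star is at 8.11.

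Of the 18 genes that lie within 3 identifiers on either side of the 3 genes, 10 were tested in inefficient and 14 in efficient genotypes, and none was called per the authors' deposited DESeq2 tables. In inefficient genotypes 2 had an unadjusted p under 0.05 and a test of any change called 5, and in efficient genotypes the counts were 0 and 0. The test of any change called 32.2% of all genes in inefficient and 7.86% in efficient genotypes. The next locus after the F-box-like gene, OS04G0280650, a hypothetical protein, was at 7.57 (SE 2.23, adjusted p 0.0800) in inefficient and 3.66 (SE 2.29, adjusted p 1) in efficient genotypes per the authors' deposited tables, with an overall mean of 9.20 normalized counts. The next locus after the prolyl endopeptidase-like gene, OS04G0561550, was at 4.43 (SE 1.67) in inefficient and 2.41 (SE 1.46) in efficient genotypes per the authors' deposited tables, with an overall mean of 3.55 and no adjusted p in inefficient genotypes. Both are low in counts, and whether they carry reads of the gene beside them was not tested. OS01G0741200, a LysM receptor kinase-like gene 3 loci after the carboxypeptidase-like gene, was at -2.15 (SE 0.37, adjusted p 0.0544) in inefficient genotypes per the authors' deposited table. OS01G0740700, a hypothetical protein, is 2 loci after the carboxypeptidase-like gene. It was at 4.33 (SE 2.06) in inefficient and 1.66 (SE 2.22) in efficient genotypes per the authors' deposited tables. Its overall mean was 15.6 normalized counts, and it was called in neither class.

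**Figure D5:**
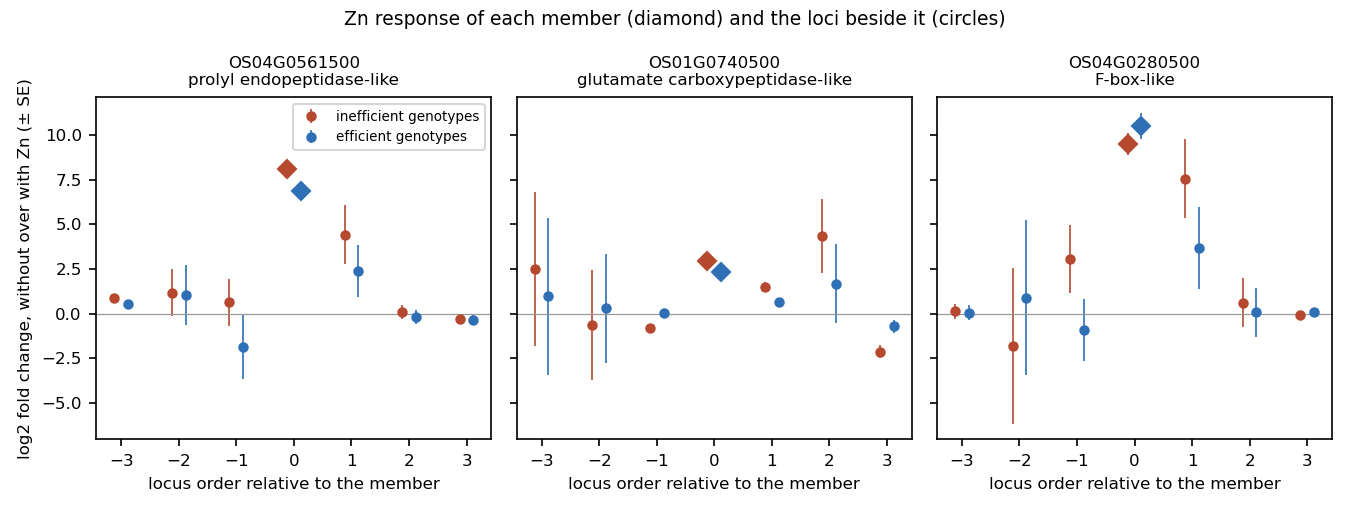
Log2 fold change without over with Zn, with 1 SE, at each of the 3 genes and the 3 loci on either side in identifier order, in inefficient and efficient genotypes. The central gene is at 8.11, 2.94 and 9.52 in inefficient genotypes, and the other loci lie nearer to 0 or have wide errors.

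The genes with the most similar pattern were sought over 3 contrasts of the 4 groups (Zn in each class, and class with Zn), by the Euclidean distance of the log2 fold changes, among 14130 genes that had an informative description and reached a mean of 20, with the 3 genes themselves left out. With so few contrasts this measure is coarse, and it says nothing of function or control. Nearest to the prolyl endopeptidase-like gene were the GDSL lipase gene OS01G0651000 at a distance of 1.75 and OS05G0472400, similar to zinc transporter 9, at 1.83. The place of OS01G0651000 is uncertain, with an SE of 1.43 on the Zn response of each class. Its derived means with Zn were 0.354 normalized counts in inefficient and 0.178 in efficient genotypes. OS05G0472400 was at 6.63 (SE 0.38) in inefficient and 5.80 (SE 0.38) in efficient genotypes per the authors' deposited tables. A ribonuclease T2 gene, OS09G0537700, at 2.55, and a phospholipase A2 gene, OS05G0184901, at 2.74 followed. OS09G0537700 had an SE of 1.88 on the Zn response of each class and was called in neither class. Nearest to the carboxypeptidase-like gene, at 0.07, was OS01G0588900, annotated as a cytokinin-activating enzyme. It was at 2.91 (SE 0.23) in inefficient and 2.24 (SE 0.23) in efficient genotypes per the authors' deposited tables. Its derived means were 619 normalized counts without Zn, against 82.1 with Zn, in inefficient genotypes, and 478 against 101 in efficient genotypes. A sugar transporter-like gene, OS03G0197100, lay at 0.27, a hemoglobin Hb2-like gene, OS06G0591600, at 0.30 and an alpha-galactosidase-like gene, OS10G0492900, at 0.32. The place of OS03G0197100 is uncertain, with an SE of 0.85 on the Zn response of each class and a call in neither class. OS10G0492900 had an SE of 0.43 in each class and was called in inefficient but not in efficient genotypes. Nearest to the F-box-like gene were OS01G0651000 at 3.21, the C2H2 zinc finger gene OS11G0702400 at 3.71, the ERF domain gene OS06G0145700 at 4.54 and OS05G0184901 at 5.13. The derived means with Zn of these 4 genes were at most 0.984 normalized counts in either class. Unlike the F-box-like gene, OS11G0702400 was called between classes without Zn, at 4.93 (SE 0.34, DESeq2 adjusted p 1.27e-27) per the authors' deposited table. It was also called over both supplies, at 4.61 (SE 0.46). Between the 3 genes, the prolyl endopeptidase-like gene lay at 4.56 from the F-box-like gene and at 6.90 from the carboxypeptidase-like gene, and those last were 10.7 apart. Of each gene's 4 nearest, 3 for the prolyl endopeptidase-like gene, 2 for the carboxypeptidase-like gene and 4 for the F-box-like gene were called as rises in both classes. Of the 24127 genes tested in inefficient genotypes, 57 were called as rises in both classes. The nearest genes were picked by the Zn responses that these calls rest on, so their calls are no independent result.

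The tissue markers used to check the crown label were present, with none under a mean of 1 normalized count, and none of the 29 was called for Zn in either class by DESeq2 or had an unadjusted p under 0.05. A test of any change called 3 of them in inefficient and 2 in efficient genotypes, where it called 32.2% and 7.86% of all genes. The green leaf markers OS03G0165375 and OS12G0291400 had no adjusted p in either class, and OS09G0439500 had none in inefficient genotypes. These could not be called there. Their log2 fold changes in inefficient genotypes were 2.48, -0.57 and 0.71 in that order. The 3 root markers had summed derived means of 3747 normalized counts without Zn, against 7202 with Zn, in inefficient genotypes, and of 10437 against 9077 in efficient genotypes. The 4 shoot meristem markers summed to 4251 without Zn, against 5118 with Zn, in inefficient genotypes, and to 3973 against 4303 in efficient genotypes. The 4 crown root primordia markers summed to 177 without Zn, against 305 with Zn, in inefficient genotypes, and to 328 against 221 in efficient genotypes. The 18 green leaf markers summed to 5874 against 6092 in inefficient genotypes and to 5299 against 4681 in efficient genotypes. The part of these shifts in the rises described above was not tested, and in bulk tissue fewer cells of a type and less RNA per cell cannot be told apart.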

How the data were processed

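RNA was sequenced from rice crowns as 12 libraries. Per the submitters' processing notes, reads were handled with HISAT2 2.0.4, Trimmomatic 0.36, FastQC 0.11.5, Subread 1.5.0-p3 (featureCounts) and DESeq2 1.12.3 on genome build IRGSP-1.0, with an annotation release not given in the sources used here. Per the file headers, each of the 6 deposited tables lists 33277 genes with a mean normalized count over libraries (a signal), a log2 fold change and its error, a test score, and a p-value before and after adjustment. Per the deposited score, the authors' p-value is two-sided for a change beyond 2-fold; recomputed, it differed by at most 3.04e-14.

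From these values, group means were derived with the overall mean and 3 contrasts, assuming that the mean weighs the groups alike; the contrasts closed to within 0.01 for all 3 genes. The spread between libraries was derived from the errors. Genes were called at an adjusted p under 0.05. For other genes, the classes' Zn responses were compared by a two-sided normal test, with Benjamini-Hochberg adjustment over 24127 genes. Lists came from words of the product descriptions, and neighbours from the order of locus identifiers. Named genes are the 3, their own families' genes (some only in counts), up to 4 called genes of other lists per table, neighbours, and the 4 most similar genes. The 3 genes, the lists and the rules were chosen with earlier results of these data known. Whether the authors' fits had a genotype term is not stated, so whether their p-values reflect the spread between genotypes is uncertain. Sequences were not analysed here. Calculations used matplotlib 3.10.9, scipy 1.17.1, numpy 2.4.6, pandas 2.3.3 and Python 3.11.15. The tests were also run on data simulated with the deposited errors. Such data cannot show whether those errors reflect the spread between genotypes.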

Additional observations from a re-analysis of the deposited data

Results flagged for a closer look

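For 4 of the 21 tested genes that the naming rule took from the lists, the Zn response differed between the classes by a two-sided normal test of the difference of the deposited log2 fold changes, per the authors' deposited tables, which asks for any difference; the same test called 1.58% of 24127 genes higher and 0.783% lower. These 4 were named because they were called for Zn, 3 of them in inefficient genotypes alone, so the count is no independent evidence. Over the whole lists, 5 of 505 genes tested differed upwards and 6 downwards. The F-box gene OS06G0166000 responded more in inefficient genotypes by 0.99 (SE 0.23, adjusted p 0.00183). The aspartic protease gene OS11G0183900 responded more by 2.31 (SE 0.57, adjusted p 0.00596). The metallopeptidase gene OS01G0778800 responded more by 1.95 (SE 0.28, adjusted p 5.54e-09). The serine carboxypeptidase gene OS04G0396800 differed by -2.28 (SE 0.47, adjusted p 0.000335), with log2 fold changes of -3.02 in inefficient and -0.74 in efficient genotypes per the authors' deposited tables.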

How the results depend on the processing

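No paired analysis was possible because no library values are in the tables, which list a single value for each gene, so neither a genotype block nor leaving out a library was run. Promoter motifs and protein comparisons were not run. For the 3 genes no class difference was called by a test of any change or over only genes that reached a mean of 20. A threshold of 0.01 cannot add a call, and the widening factor was 1 in the class comparisons, so these alternatives say nothing of stability there. The other contrasts gave the same derived means and response differences, as contrasts that close must. The cause of the following changes was not tested.

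Of the 4 most similar genes named, 2 remained for each of the 3 genes when the distance was divided by its error, and with a mean of at least 100 there remained 2 for the prolyl endopeptidase-like and 1 for the F-box-like gene. With 5 loci on either side, 2 neighbours of the carboxypeptidase-like gene were called in inefficient genotypes, both falls. In the peptidase lists a test of any change called 91 genes in inefficient and 23 in efficient genotypes, 100 over all genotypes and 15 between classes without Zn, against 7, 0, 1 and 1. Widened errors gave 0 in inefficient and 0 over all genotypes. The widening factor was 2.24 in inefficient and 2.34 over all genotypes. It is the robust spread, over all tested genes, of the log2 fold change divided by its error. This factor also grows with the Zn response itself, so the lost calls cannot show whether the deposited errors are too small. Over all genotypes a threshold of 0.01 gave 0, a mean of at least 20 gave 2, and leaving out inhibitors, a choice made after seeing the data, gave 0. In the F-box and SCF lists a test of any change called 62 in inefficient and 11 in efficient genotypes, 72 over all, 16 between classes without Zn and 5 over both supplies, against 10, 1, 3, 1 and 0. A threshold of 0.01 gave 6 and 1, and widened errors 1 and 1, in inefficient and over all genotypes.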
